A study of Rattus norvegicus with 9 samples.

Results

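The genes of potassium channels, voltage-gated calcium channels, and TRP (transient receptor potential) channels were examined in adipose-derived mesenchymal stem cells (ASCs) from 3 fat depots of the rat. Members were the protein-coding genes whose symbols begin with Kcn and a further letter and number, with Cacna, Cacnb, or Cacng, or with Trpc, Trpm, or Trpv and a single digit. They numbered 139 of the 35362 genes in the count table, of which 21519 were protein-coding, and they comprised 92 potassium channel, 26 calcium channel, and 21 TRP channel genes. Members with at least 20 counts in all 3 samples of a group are named below, and 41 met this. SASCs, PASCs, and EASCs were grown from subcutaneous (groin), perirenal, and epididymal fat, taken from male rats of the Sprague Dawley strain at 6 weeks of age. No group carried an allele or received an agent, and the RNA of all groups was taken from cultured cells at passage 3. There were 3 samples per group and 9 in all, although the study's methods give 6 rats and 6 replicates in each group. The methods describe the replicates as wells of culture plates, and whether the wells of a group held cells of different rats is not given in the sources used here. All 9 titles begin with sd1, which the labels do not explain. The p-values therefore measure only the spread between these samples, which may be technical.

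Potassium channels let potassium leave or enter the cell and set the resting membrane potential, and with it the driving force for calcium entry. Voltage-gated calcium channels are built from a pore subunit (Cacna1) with alpha2delta, beta, and, in some tissues, gamma subunits. TRP channels are mostly nonselective cation channels that open to temperature, stretch, lipids, or second messengers. In mesenchymal cells, which do not fire action potentials, such channels are known for roles in cell volume, proliferation, migration, and contractility.

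The promoters of 4 potassium channel genes on which the results turn are shown first. Kcnmb1 and Kcnmb4 encode beta subunits of the same calcium-activated potassium channel and were both higher in EASCs than in SASCs. Kcnk2 and Kcnk5 encode K2P potassium channels and were both lower in EASCs than in SASCs. The sequences are from the RefSeq table of the assembly GRCr8, run from 250 bases before to 50 bases after the annotated start, and are written 5′ to 3′ on the strand of the gene. Capitals mark GGGCGG, the GC box, or CCGCCC, its reverse complement. Kcnk2 is shown with both of its starts in the table.
Kcnmb1, chr10:19061849-19062148, plus strand: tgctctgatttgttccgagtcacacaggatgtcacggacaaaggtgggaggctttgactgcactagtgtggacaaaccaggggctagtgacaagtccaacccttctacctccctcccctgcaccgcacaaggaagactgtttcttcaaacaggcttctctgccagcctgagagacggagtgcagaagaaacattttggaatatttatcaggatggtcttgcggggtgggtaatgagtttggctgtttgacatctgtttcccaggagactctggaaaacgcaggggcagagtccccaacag
Kcnmb4, chr7:54005052-54005351, minus strand: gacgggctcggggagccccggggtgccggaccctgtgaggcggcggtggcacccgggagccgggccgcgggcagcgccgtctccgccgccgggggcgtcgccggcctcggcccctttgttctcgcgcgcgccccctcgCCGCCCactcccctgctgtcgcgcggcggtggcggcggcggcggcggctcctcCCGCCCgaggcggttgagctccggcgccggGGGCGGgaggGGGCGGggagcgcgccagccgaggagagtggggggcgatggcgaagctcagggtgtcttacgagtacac
Kcnk5, chr15:4171375-4171674, plus strand: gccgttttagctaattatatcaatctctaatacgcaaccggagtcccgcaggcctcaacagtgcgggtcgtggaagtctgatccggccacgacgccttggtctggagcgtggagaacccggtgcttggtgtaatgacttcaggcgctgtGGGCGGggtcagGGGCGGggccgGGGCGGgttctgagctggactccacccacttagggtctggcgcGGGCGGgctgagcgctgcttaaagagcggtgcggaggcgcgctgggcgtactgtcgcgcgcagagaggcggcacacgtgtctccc
Kcnk2, chr13:103494637-103494936, minus strand: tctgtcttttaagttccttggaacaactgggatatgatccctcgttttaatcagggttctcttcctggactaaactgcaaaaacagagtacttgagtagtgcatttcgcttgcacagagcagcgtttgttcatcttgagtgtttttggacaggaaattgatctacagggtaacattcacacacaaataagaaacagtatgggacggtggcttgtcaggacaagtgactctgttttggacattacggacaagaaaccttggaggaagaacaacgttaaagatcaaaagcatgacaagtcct
Kcnk2, chr13:103438593-103438892, minus strand: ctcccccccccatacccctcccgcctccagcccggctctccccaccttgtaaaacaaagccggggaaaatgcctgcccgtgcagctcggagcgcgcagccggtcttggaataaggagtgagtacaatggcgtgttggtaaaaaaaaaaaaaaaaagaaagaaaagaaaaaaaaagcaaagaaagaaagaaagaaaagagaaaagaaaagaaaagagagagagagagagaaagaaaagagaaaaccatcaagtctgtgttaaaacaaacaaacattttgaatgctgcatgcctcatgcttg

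The promoters differed in base composition. GC content was 51.7% with 6 CpG in Kcnmb1 and 80.7% with 48 CpG in Kcnmb4, against medians of 51.7% and 7 over all 33469 promoters in the table. Kcnk5 had 64.7% GC with 30 CpG, and the promoters of Kcnk2 had 41.7% and 44.3% with 6 and 9 CpG. Among the 41 named genes, 31 matched the table by symbol, with 36 promoters in all. On either strand, GGGCGG was found in 22 of these 36 (61.1%) and in 33.1% of all promoters. CATTCC, the core of the TEAD motif, was found in 2 of the 36 (5.56%) and in 14.2% of all. The CArG box, bound by serum response factor, and TGANTCA, the AP-1 motif, were found in 0 of the 36 and in 1.64% and 7.33% of all promoters. None of these motifs contains another. A match or its absence describes only the letters of this window.

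Counts were scaled to CPM (counts per 1e6 counts) with edgeR's TMM factors, which ranged from 0.740 to 1.23. Total counts per sample were between 17591916 and 30299032, so that 3 counts were worth 0.104 to 0.159 CPM, and values near or below this level are limited by counting error alone. Differences were tested with edgeR's quasi-likelihood test over 14770 genes with enough counts, and a differentially expressed gene (DEG) had an adjusted P-value (FDR) under 0.05 and a fold change above 2. The 8 markers of mesenchymal stem cells were all detected in each group, with summed levels of 14500 to 15300 CPM in SASCs, between 20900 and 25400 CPM in PASCs, and 24400 to 26900 in EASCs. Col1a1 made up most of this sum, with means of 10700, 19100, and 20300 CPM in SASCs, PASCs, and EASCs, while Pdgfra had means of 1540, 278, and 235 CPM and Thy1 of 545, 777, and 405 CPM. Of other cell types, the 8 markers of smooth muscle and pericytes summed to 195 to 208 CPM in SASCs, between 2920 and 3220 CPM in PASCs, and 6430 to 6790 in EASCs, and 7 of them were higher and 1 lower in EASCs than in SASCs. The 4 markers of mature adipocytes summed to 87.0 to 95.9, 18.8 to 20.2, and 9.16 to 9.88 CPM in SASCs, PASCs, and EASCs, and the 4 of leukocytes to 16.7 to 20.5, 33.4 to 36.4, and 60.3 to 64.8. The 4 of endothelium summed to 38.8 to 41.6, 11 to 13.2, and 26.7 to 29.7, and the 6 of Schwann cells and melanocytes to 33.8 to 37.4, 9.83 to 12.2, and 3.69 to 3.98, with Dct at 0 in every sample. The 5 of mesothelium summed to 17.4 to 19.0, 90.9 to 97.9, and 124 to 135, and the 4 of neurons, of which only Tubb3 passed 1 CPM, to 26.7 to 35.4, 57.5 to 60.5, and 116 to 126. The 5 markers of skeletal muscle did not exceed 0.650 CPM in any sample, and Myf5, Myog, and Pax7 were at 0 throughout. In these bulk samples, fewer cells of a type and less RNA per cell cannot be told apart.

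Most channel genes had few or no counts in these cells. Of the 139 genes, 17 had 0 counts in every sample, 84 had too few counts to be tested, and 55 were tested. Among the 98 genes that were not named, the highest count in any sample was under 5 for 57 and reached 41 at most, and 14 of them were tested. The named genes were 25 of the potassium channel genes, 8 of the calcium channel genes, and 8 of the TRP genes, and they gave 95.1% to 99.5% of the summed level of their class in each group.

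Between the groups, channel genes were DEGs in both directions. In EASCs against SASCs, 14 of the 55 tested genes were higher (25.5%, against 13.6% of all genes tested) and 16 were lower (29.1%, against 14.2%). In PASCs against SASCs, 10 were higher (18.2%, against 12.0%) and 14 were lower (25.5%, against 14.9%). In EASCs against PASCs, 14 were higher (25.5%, against 5.19%) and 4 were lower (7.27%, against 2.20%). Of the 35 potassium channel genes among them, 11 were higher and 11 lower in EASCs against SASCs (31.4% each). In PASCs against SASCs, 10 of the 35 were higher and 10 lower (28.6% each), and between EASCs and PASCs 10 were higher (28.6%) and 4 lower (11.4%). These shares describe the tested genes only, since a gene that was low in every group could not be tested. The median log2 fold change of the 55 genes was 0.15, −0.16, and 0.16 in the 3 comparisons, and that of all genes tested was 0.01, −0.01, and −0.01. Setting Kcna7 and Kcnj15 to the ratio or bound given below left these 3 medians at the same values. The comparisons share their SASC samples or their EASC and PASC samples.

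Of the 41 named genes, 27 were a DEG in at least 1 comparison and 14 in none. A gene could reach the 20 counts through a single group where it was high, so these counts describe the named genes and are not set against the shares of all genes. There were 10 that were lower in both EASCs and PASCs than in SASCs, 5 that were higher in both, and 0 that differed in opposite directions. A DEG call was made in all 3 comparisons for 8 genes. In EASCs against SASCs, 7 potassium channel genes, 1 calcium channel gene, and 1 TRP gene were higher, and 9, 1, and 3 were lower. In PASCs against SASCs, 6 potassium channel genes and no calcium channel or TRP gene were higher, and 8, 1, and 2 were lower.

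**Figure D1:**
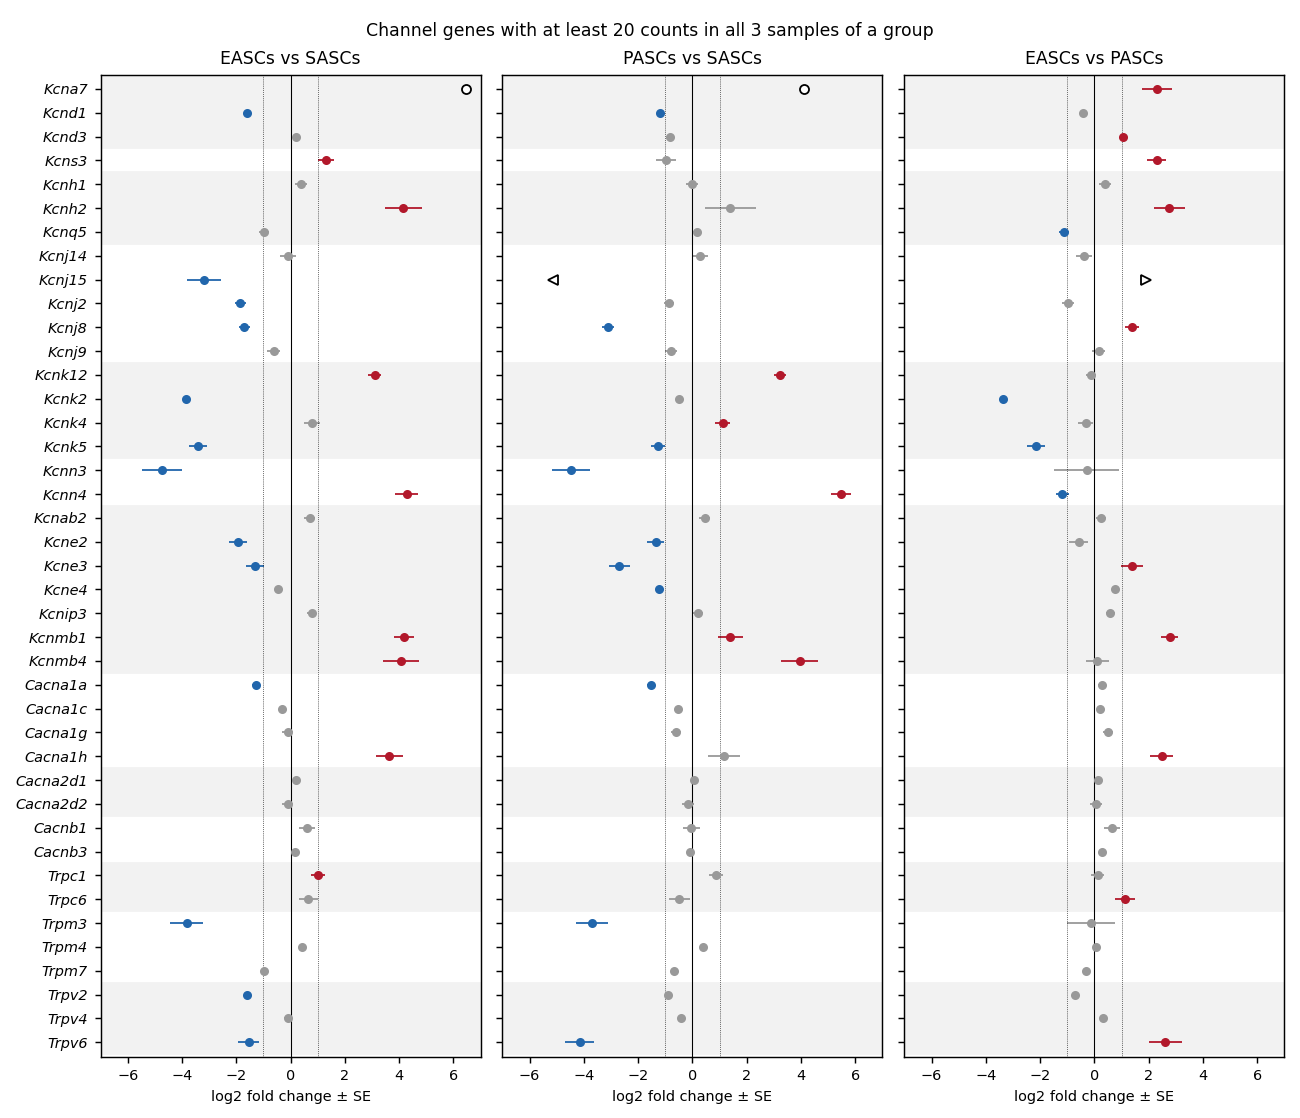
Log2 fold change ± SE from edgeR of the 41 named channel genes in the 3 comparisons, with higher DEGs in red, lower DEGs in blue, and other genes in grey, and dotted lines at a fold change of 2. Open triangles mark bounds for Kcnj15 and open circles the ratios of counts for Kcna7, and 27 of the genes are coloured or open in at least 1 panel.

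Compared per length, as CPM per kilobase of gene length, a few genes carried most of the signal. In SASCs the highest levels were those of Kcne4 (30.0), Trpv2 (28.2), Cacnb3 (16.8), Trpm7 (16.4), Kcnk2 (12.9), and Kcnd1 (12.5). In PASCs the order was Cacnb3 (15.8), Trpv2 (15.1), Kcne4 (12.7), and Trpm7 (10.3), and in EASCs it was Kcne4 (21.4), Cacnb3 (19.0), Trpv2 (9.25), and Cacna2d1 (8.82). The summed level of all potassium channel genes was 76.0 ± 1.96 CPM per kilobase (SD, n = 3) in SASCs, 44.1 ± 1.93 in PASCs, and 47.7 ± 0.353 in EASCs. Kcne4, which encodes no pore, gave 39.4%, 28.8%, and 44.9% of these sums. The summed level of TRP genes was 54.4 ± 1.37 in SASCs, 35.2 ± 0.609 in PASCs, and 28.8 ± 0.449 in EASCs, and Trpv2 gave 51.8%, 43.0%, and 32.1% of it. Calcium channel genes summed to 30.9 ± 0.604, 28.4 ± 1.61, and 33.2 ± 1.05, with Cacnb3 at 54.5%, 55.6%, and 57.1%. For potassium channel and TRP genes, all 3 SASC samples lay above the 6 others. For calcium channel genes the groups did not overlap either, but the gaps were small, with 30.3 to 31.5 in SASCs, 26.5 to 29.4 CPM per kilobase in PASCs, and 32.3 to 34.4 in EASCs. With total counts in place of TMM, Cacnb3 (−0.22) and Cacna2d1 (−0.19) reversed on the log2 scale in EASCs against SASCs. The sums were not computed under that scaling, so their order may depend on TMM.

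**Figure D2:**
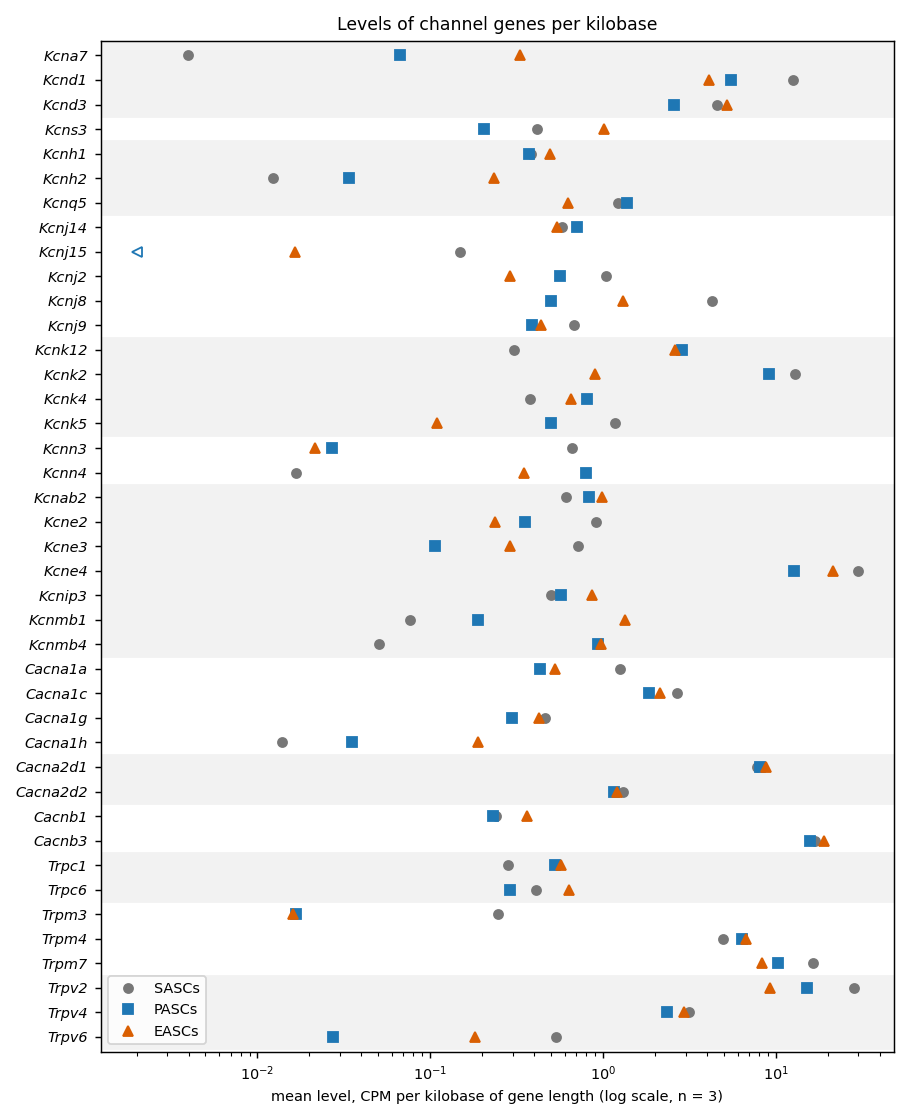
Mean level of the 41 named channel genes in CPM per kilobase of gene length on a log axis (n = 3 per group), with grey circles for SASCs, blue squares for PASCs, and orange triangles for EASCs. The open triangle at the left edge marks Kcnj15, which was at 0 in PASCs, and the highest points are Kcne4 and Trpv2 in SASCs at 30.0 and 28.2.

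K2P channels conduct the background potassium current that holds the resting potential, and 4 of 14 members were named. Kcnk2, whose channel opens to membrane stretch, lipids, and heat, lies on chromosome 13 of rn6 from 107690111 to 107886476. It had 55.1, 59.8, and 50 CPM in SASCs, 35.9, 38.7, and 43.0 CPM in PASCs, and 4.19, 4.01, and 3.27 CPM in EASCs. The 3 groups did not overlap, and EASCs lay far below both other groups. The log2 fold change was −3.84 ± 0.106 (SE) in EASCs against SASCs (edgeR's quasi-likelihood test, FDR = 6.49e-22) and −3.35 ± 0.108 in EASCs against PASCs (FDR = 4.1e-19). In PASCs against SASCs it was −0.49 ± 0.0808, which passed the FDR threshold (5.52e-06) but was less than a fold change of 2. Kcnk5, whose channel opens at alkaline pH and takes part in volume regulation, had 3.93, 4.46, and 3.86 CPM in SASCs, 1.49, 1.35, and 2.38 CPM in PASCs, and 0.461, 0.405, and 0.268 in EASCs. It was a DEG in all 3 comparisons, with log2 fold changes of −3.41 ± 0.315 in EASCs and −1.26 ± 0.251 in PASCs against SASCs and −2.15 ± 0.345 between EASCs and PASCs.

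Kcnk12 moved the other way. Its product is a K2P subunit that gives little or no current when expressed alone, and it had 0.521, 0.679, and 0.537 CPM in SASCs, 4.67, 5.79, and 5.93 CPM in PASCs, and 5.11, 4.95, and 4.92 in EASCs. PASCs and EASCs overlapped with each other and both lay above SASCs, by 3.23 ± 0.232 and 3.10 ± 0.234 on the log2 scale. Kcnk4, which encodes another stretch-sensitive K2P channel, had means of 1.07, 2.26, and 1.83 CPM in SASCs, PASCs, and EASCs and was a DEG in PASCs against SASCs only at 1.11 ± 0.286. That call was lost with total counts in place of TMM (0.77) and without SASCs or PASCs sample 1 (0.95 in each).

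Among calcium-activated potassium channels without a voltage sensor, Kcnn4 was higher and Kcnn3 lower in both PASCs and EASCs than in SASCs. Kcnn4, the intermediate-conductance channel known from T cells, red cells, and proliferating smooth muscle, had 0.174, 0, and 0.146 CPM in SASCs, 4.51, 5.68, and 5.03 CPM in PASCs, and 2.09, 2.15, and 2.46 in EASCs. SASCs lay at the level of a few counts, and no groups overlapped. The log2 fold change was 5.47 ± 0.384 in PASCs (FDR = 8.12e-13) and 4.28 ± 0.424 in EASCs (FDR = 9.1e-10) against SASCs, and −1.18 ± 0.239 in EASCs against PASCs. Without SASCs sample 1 the differences from SASCs were 6.11 and 4.92. The summed leukocyte markers were 16.7 to 20.5 CPM in SASCs, between 33.4 and 36.4 CPM in PASCs, and 60.3 to 64.8 in EASCs. Their part in the result was not tested.

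Kcnn3, a small-conductance channel, had 0.939, 2.04, and 2 CPM in SASCs, 0, 0.15, and 0.053 CPM in PASCs, and 0, 0.162, and 0 in EASCs. All 6 samples outside SASCs were at or near 0, and the log2 fold changes were −4.46 ± 0.697 in PASCs and −4.74 ± 0.723 in EASCs. The value in PASCs was −3.85 without PASCs sample 1 and −5.89 without PASCs sample 2, and EASCs sample 2 held all EASC counts, so that without it the EASCs were at 0. Beside it, the summed markers of Schwann cells and melanocytes were also highest in SASCs, and their part in the result was not tested. The other calcium- or sodium-activated pore genes reached at most 14 counts in any sample.

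**Figure D3:**
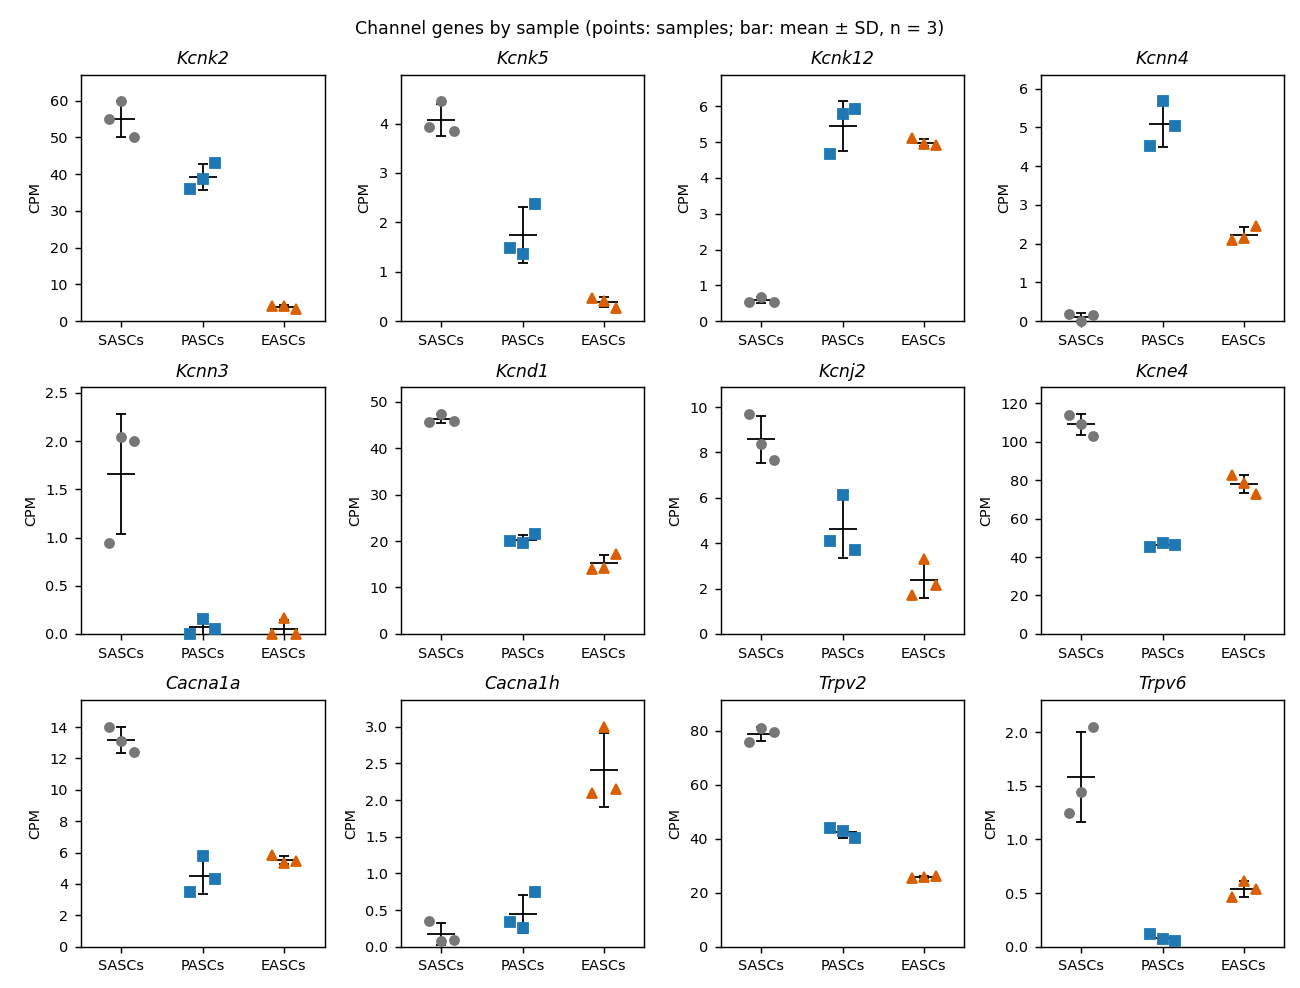
CPM in each sample for 12 of the named channel genes, with points for samples, a bar for the mean ± SD (n = 3), and a linear axis from 0 in each panel. Kcnk2, Kcnk5, Kcnn3, Kcnd1, Kcnj2, Kcne4, Cacna1a, Trpv2, and Trpv6 are highest in SASCs, Kcnk12 and Kcnn4 are near 0 to 0.679 CPM in SASCs and above 2 elsewhere, and Cacna1h is highest in EASCs.

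Kcnmb1 and Kcnmb4, beta subunit genes of the large-conductance calcium-activated channel, were named, while its pore gene had few counts. Kcnmb1, which raises the calcium sensitivity of the channel in smooth muscle, had 0.209, 0.17, and 0.586 CPM in SASCs, 1.26, 0.598, and 0.53 CPM in PASCs, and 6.45, 4.54, and 5.9 in EASCs. EASCs lay above all other samples, while SASCs and PASCs overlapped. The log2 fold change was 4.18 ± 0.362 in EASCs against SASCs (FDR = 6.14e-11) and 2.78 ± 0.308 in EASCs against PASCs (FDR = 3.98e-08). In PASCs against SASCs it was 1.40 ± 0.454 (FDR = 0.008), and without PASCs sample 1 it was 0.89 (FDR = 0.122). Without SASCs sample 3, Kcnmb1 was higher by 4.84 in EASCs and 2.06 in PASCs. Kcnmb4, the beta subunit best known from brain, had 0.104, 0, and 0.0488 CPM in SASCs, 0.689, 0.71, and 1.43 CPM in PASCs, and 0.837, 0.973, and 1.16 in EASCs, so that PASCs and EASCs both lay above SASCs, by 3.95 ± 0.672 and 4.06 ± 0.665, or by 5.04 and 5.14 without SASCs sample 1. Kcnma1, the pore gene of this channel, on chromosome 15 from 344204 to 1048849, had 2 counts in each SASC sample, 4, 1, and 1 in PASCs, and 0, 1, and 2 in EASCs, too few to test. Genes that overlap Kcnma1 were not looked up, and how reads that match several genes were counted is not given. The sum of the 8 smooth muscle and pericyte markers was also highest in EASCs and lowest in SASCs, although Rgs5 was highest in SASCs, and their part in the result was not tested. Kcnmb1 overlaps Kcnip1 on the other strand, but the 10 counts of Kcnip1 in all samples stand beside 479 of Kcnmb1.

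Inward rectifiers pass potassium more easily into than out of the cell, and 5 of 15 members were named. Kcnj8, the pore of the ATP-sensitive potassium (KATP) channel of vascular cells, had 7.61, 6.24, and 6.25 CPM in SASCs, 0.65, 0.86, and 0.847 CPM in PASCs, and 2.05, 1.99, and 2.15 in EASCs. The 3 groups did not overlap, with PASCs lowest. The log2 fold change was −3.10 ± 0.225 in PASCs (FDR = 1.57e-12) and −1.70 ± 0.194 in EASCs (FDR = 1.33e-08) against SASCs, and 1.39 ± 0.252 in EASCs against PASCs (FDR = 8.39e-05). Abcc9, the sulfonylurea receptor that assembles with Kcnj8, had 26.1, 27.4, and 32.8 CPM in SASCs, 2.72, 1.79, and 2.44 CPM in PASCs, and 8.92, 5.43, and 6.4 in EASCs. Its order was that of Kcnj8, with log2 fold changes of −3.64 ± 0.164, −2.05 ± 0.14, and 1.58 ± 0.184 in the same comparisons. The other receptor, Abcc8, had at most 2 counts in any sample, as did Kcnj11, the other KATP pore gene. Both Kcnj8 and Abcc9 are known from pericytes. The pericyte marker Rgs5 had means of 1.25, 0.0759, and 0.169 CPM in SASCs, PASCs, and EASCs, while the sum of the 8 smooth muscle and pericyte markers was lowest in SASCs. Of the endothelial markers, Pecam1 (10.6, 1.11, and 6.47 CPM) and Kdr (18.1, 1.67, and 3.75 CPM) were highest in SASCs, Cdh5 had means of 9.2, 1.13, and 9.77 CPM, and Tek was lowest in SASCs (2.55, 8.3, and 8.08 CPM). The part of these cells in the result was not tested.

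Kcnj2, the strong inward rectifier of heart and skeletal muscle, had 9.7, 8.36, and 7.66 CPM in SASCs, 4.09, 6.13, and 3.71 CPM in PASCs, and 1.72, 3.28, and 2.15 in EASCs. It was lower in EASCs than in SASCs by a log2 fold change of −1.85 ± 0.208. The PASCs, at −0.87 ± 0.19 against SASCs, and the step from PASCs to EASCs, at −0.97 ± 0.219, passed the FDR threshold but stayed under a fold change of 2. The first was past it without PASCs sample 2 (−1.13) and with total counts (−1.22), and the second without PASCs sample 1 (−1.07), PASCs sample 3 (−1.09), or EASCs sample 2 (−1.28) and, at the limit, with total counts (−1.0). Kcnj15 had 1.6, 1.53, and 1.27 CPM in SASCs, 0 in every PASC sample, and 0.0419, 0, and 0.447 in EASCs. With 3 counts taken as the limit for the PASC group as a whole, Kcnj15 was at least 35.5-fold lower in PASCs than in SASCs. In EASCs it was lower than in SASCs by a log2 fold change of −3.19 ± 0.631 (FDR = 8.6e-05), where DESeq2 gave an FDR of 0.0506. That value rests on EASCs sample 3, which held 10 of the 11 EASC counts, and was −5.84 without it and −2.59 without EASCs sample 2. The call between EASCs and PASCs was lost without EASCs sample 3 (FDR = 0.429), without each PASC sample in turn (FDR = 0.0601 to 0.0827), and with DESeq2 (FDR = 0.0689). Kcnj9, a subunit of G protein-gated channels, had means of 3.47, 1.97, and 2.25 CPM in SASCs, PASCs, and EASCs and was no DEG, but it was one in both EASCs and PASCs against SASCs with total counts in place of TMM (−1.04 and −1.13). Kcnj14 had means between 1.48 and 1.94 CPM and passed no test.

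Voltage-gated potassium channels open on depolarization. Of their 17 classical pore genes, Kcnd1, Kcnd3, and Kcna7 were named. Kcnd1 and Kcnd3 encode channels of the fast, transient A-type current, and they differed in pattern. Kcnd1 had 45.6, 47.4, and 45.8 CPM in SASCs, 19.9, 19.5, and 21.5 CPM in PASCs, and 14, 14.2, and 17.2 in EASCs, with no overlap between groups. It was lower than in SASCs by −1.61 ± 0.0841 in EASCs (FDR = 1.13e-15) and −1.19 ± 0.0817 in PASCs (FDR = 4.83e-13) on the log2 scale. Kcnd3 had 28.6, 31.1, and 33.7 CPM in SASCs, 14, 19.1, and 19.3 CPM in PASCs, and 32.9, 36.6, and 37.5 in EASCs, so that PASCs alone lay apart. The difference of EASCs from PASCs was 1.04 ± 0.0996, which fell under a fold change of 2 without PASCs sample 1 (0.89) and with total counts (0.96), and PASCs against SASCs was −0.84 ± 0.1, or −1.16 with total counts. As a result, the ratio between these A-type genes turned: Kcnd1 was above Kcnd3 per length in SASCs (12.5 against 4.57 CPM per kilobase) and in PASCs (5.47 against 2.56), and below it in EASCs (4.08 against 5.24).

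Kcna7, a voltage-gated channel gene of striated muscle, had 1 count in the SASC samples together, in sample 2, 17 in PASCs, and 85 in EASCs. The ratio of EASCs to SASCs was 87.3 with a 95% counting interval of 15.2 to 3490, and that of PASCs to SASCs was 17.2 with an interval of 2.7 to 721. Between EASCs (0.879, 1.78, and 0.895 CPM) and PASCs (0.0765, 0.374, and 0.265 CPM) the log2 fold change was 2.30 ± 0.543. Kcns3, a modifier subunit that forms no channel of its own, had 0.8, 0.891, and 1.17 CPM in SASCs, 0.421, 0.523, and 0.477 CPM in PASCs, and 2.34, 2.39, and 2.28 in EASCs. EASCs lay above PASCs by 2.29 ± 0.339 and above SASCs by 1.31 ± 0.307, although the latter fell to 0.91 with total counts. In PASCs against SASCs it was −0.99 ± 0.371, at the limit of a fold change of 2, and past it with DESeq2 (−1.01), with total counts (−1.32), and without SASCs sample 1 (−1.11), SASCs sample 2 (−1.03), or PASCs sample 2 (−1.07).

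Of the Kcnh and Kcnq genes, 3 of 13 were named. Kcnh2, which carries the rapid delayed rectifier current of the heart, had 0.0695, 0, and 0.0976 CPM in SASCs, 0.268, 0.0374, and 0.159 CPM in PASCs, and 1, 1.18, and 1.03 in EASCs. The EASCs lay above all other samples, by a log2 fold change of 4.16 ± 0.69 over SASCs and 2.76 ± 0.579 over PASCs, the latter 3.51 without PASCs sample 1. Kcnq5, one of the genes of the M-type current, had means of 4.65, 5.2, and 2.38 CPM in SASCs, PASCs, and EASCs, and was lower in EASCs than in PASCs by a log2 fold change of −1.13 ± 0.18. Against SASCs it was −0.97 ± 0.182 in EASCs, just under a fold change of 2, and past it without EASCs sample 3 (−1.06) and with total counts (−1.38). Kcnh1, a channel known from dividing cells, had means between 2.81 and 3.72 CPM and passed no test.

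Auxiliary subunits change the gating and trafficking of voltage-gated channels, and 7 of 15 were named. The Kcne genes encode small proteins with a single membrane span, and all 3 named members were lower in PASCs than in SASCs. Kcne4, on chromosome 9 from 84688869 to 84693066, had 114, 109, and 103 CPM in SASCs, 45.4, 47.1, and 46.1 CPM in PASCs, and 82.6, 78.6, and 72.8 in EASCs. No groups overlapped, and the log2 fold change in PASCs was −1.24 ± 0.0615 (FDR = 3.82e-16). In EASCs it was −0.48 ± 0.0595, which passed the FDR threshold but not the fold change of 2. Kcne3 had 2.68, 1.87, and 3.91 CPM in SASCs, 0.612, 0.374, and 0.265 CPM in PASCs, and 1.13, 0.811, and 1.48 in EASCs, with log2 fold changes of −2.69 ± 0.377 in PASCs and −1.30 ± 0.328 in EASCs. The difference of 1.39 ± 0.414 between EASCs and PASCs was lost without EASCs sample 3 (FDR = 0.0602), and Kcne3 overlaps a long noncoding RNA on the other strand with 50 counts beside 312. Kcne2 had means of 2.34, 0.909, and 0.608 CPM in SASCs, PASCs, and EASCs, and was lower by −1.36 ± 0.306 in PASCs and −1.94 ± 0.323 in EASCs.

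Kcnip3, a calcium-binding protein that joins Kcnd channels and also acts in the nucleus, and Kcnab2, a beta subunit of Kcna channels, were no DEGs. Kcnip3 had 3.23, 3.18, and 3.17 CPM in SASCs, 3.56, 3.78, and 3.65 CPM in PASCs, and 5.65, 5.15, and 5.73 in EASCs, a log2 fold change of 0.78 ± 0.166 in EASCs against SASCs (FDR = 0.000164). Kcnab2 had means of 2.93, 4.01, and 4.77 CPM, with 0.70 ± 0.195 in EASCs against SASCs. It overlaps Nphp4 on the other strand, with 1408 counts beside 839 of Kcnab2, and since the use of strand in counting is not stated, the reads of the pair could not be told apart where they overlap.

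Of the 12 voltage-gated calcium channel genes tested, 2 were higher and 2 lower in EASCs than in SASCs (16.7% each, against 13.6% and 14.2% of all genes), and 0 were higher and 2 lower (16.7%, against 14.9%) in PASCs. Between EASCs and PASCs, 2 were higher in EASCs (16.7%, against 5.19%) and 0 lower. Of the 8 named genes 6 were no DEG in any comparison. Cacnb3, the most abundant of them per length, had 55.6, 55.4, and 57.7 CPM in SASCs, 50.3, 53.8, and 54.2 CPM in PASCs, and 62.8, 62.3, and 65.1 in EASCs, and Cacna2d1, which brings the pore to the membrane, had means of 57.6, 60.6, and 65.7 CPM. Between EASCs and SASCs, Cacnb3 and Cacna2d1 differed by log2 fold changes of 0.17 ± 0.0596 and 0.19 ± 0.0717, and with total counts in place of TMM both turned negative (−0.22 and −0.19). Cacna1c, the L-type pore of heart and smooth muscle, had means of 35.6, 24.6, and 28.4 CPM and log2 fold changes of −0.53 ± 0.0831 in PASCs and −0.33 ± 0.0822 in EASCs. It overlaps Dcp1b on the other strand, with 1039 counts beside 6365. Cacna1g, a T-type pore, had means of 3.88, 2.51, and 3.59 CPM, and Cacna2d2 and Cacnb1 had means from 6.55 to 7.39 and from 1.23 to 1.92 CPM.

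The pore genes Cacna1a and Cacna1h were the exceptions. Cacna1a, the P/Q-type pore known from nerve terminals, had 14, 13.1, and 12.4 CPM in SASCs, 3.48, 5.79, and 4.29 CPM in PASCs, and 5.82, 5.31, and 5.46 in EASCs. PASCs and EASCs overlapped, and both lay below SASCs by log2 fold changes of −1.54 ± 0.148 (FDR = 5.07e-10) and −1.26 ± 0.144 (FDR = 1.56e-08). The neuronal marker Tubb3 had means of 31.9, 58.8, and 122 CPM in SASCs, PASCs, and EASCs, and the 3 other neuronal markers had means at or under 1 CPM. Their part in the result was not tested. Cacna1h, a T-type pore that opens near the resting potential, had 0.348, 0.0849, and 0.0976 CPM in SASCs, 0.344, 0.262, and 0.741 CPM in PASCs, and 2.09, 3, and 2.15 in EASCs. The EASCs lay above the 6 other samples, by 3.64 ± 0.486 over SASCs (FDR = 2.17e-07) and 2.48 ± 0.431 over PASCs (FDR = 4.81e-05). In PASCs against SASCs the difference was 1.16 ± 0.594 (FDR = 0.0854), and without SASCs sample 1 the difference of EASCs from SASCs was 4.65. The difference of PASCs from SASCs passed the test at 2.17 without SASCs sample 1 and at 1.44 without PASCs sample 2. The sum of the smooth muscle and pericyte markers was also highest in EASCs and lowest in SASCs, unlike Rgs5, and their part in the result was not tested. All 8 gamma subunit genes had at most 15 counts in any sample, and 4 of them had 0 counts throughout.

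Of the 8 TRP genes tested, 1 was higher (12.5%, against 13.6% of all genes) and 3 were lower (37.5%, against 14.2%) in EASCs than in SASCs, and 0 were higher and 2 lower in PASCs (25.0%, against 14.9%). Between EASCs and PASCs, 2 were higher in EASCs (25.0%, against 5.19%) and 0 lower. Trpv2, a channel sensitive to heat and membrane stretch, on chromosome 10 from 48903540 to 48925036, had 75.9, 81.2, and 79.7 CPM in SASCs, 44.1, 42.9, and 40.3 CPM in PASCs, and 25.5, 25.8, and 26.4 in EASCs. The 3 groups did not overlap, and the log2 fold change was −1.61 ± 0.065 in EASCs against SASCs (FDR = 3.68e-18). The differences of −0.89 ± 0.0623 in PASCs against SASCs and −0.71 ± 0.0664 in EASCs against PASCs passed the FDR threshold but not the fold change of 2, which the first passed with total counts (−1.22). Trpm7, a magnesium- and zinc-permeable channel fused to a kinase, had 114, 114, and 120 CPM in SASCs, 69.2, 71.4, and 77 CPM in PASCs, and 59.8, 63.5, and 52.2 in EASCs. At −0.98 ± 0.0656 (FDR = 2.55e-13), EASCs stood just under a fold change of 2 below SASCs. They passed it without EASCs sample 2 (−1.04), with total counts (−1.36), and, at the limit, with DESeq2 (−1.0). Trpm4, a calcium-activated channel for monovalent cations, was in contrast 0.43 ± 0.0849 above SASCs in EASCs and 0.37 ± 0.0851 in PASCs, with means of 20.9, 26.8, and 28.2 CPM in SASCs, PASCs, and EASCs. Trpv4, an osmosensitive channel, had means of 10.2, 7.63, and 9.55 CPM and was no DEG.

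Trpv6 and Trpm3 were at or near the counting limit in PASCs. Trpv6, a calcium-selective channel of absorbing epithelia, had 1.25, 1.44, and 2.05 CPM in SASCs, 0.115, 0.0748, and 0.053 CPM in PASCs, and 0.461, 0.608, and 0.537 in EASCs. It was a DEG in all 3 comparisons without overlap, with log2 fold changes of −4.15 ± 0.536 in PASCs and −1.54 ± 0.395 in EASCs against SASCs and 2.61 ± 0.612 in EASCs against PASCs. Trpm3, a channel opened by the steroid pregnenolone sulfate and heat, had 1.25, 1.78, and 2 CPM in SASCs, 0.191, 0.15, and 0 CPM in PASCs, and 0.0837, 0.243, and 0 in EASCs. Both EASCs (−3.83 ± 0.61) and PASCs (−3.70 ± 0.598) lay below SASCs without overlap, the former by −5.11 without EASCs sample 2. The summed Schwann cell and melanocyte markers were also lower outside SASCs, and their part in the result was not tested. Trpc1 had 1.36, 1.53, and 1.17 CPM in SASCs, 2.26, 2.73, and 2.54 CPM in PASCs, and 2.34, 2.39, and 3.49 in EASCs. Its call in EASCs (1.01 ± 0.255) lay at the threshold and was lost with DESeq2 (0.99), the replicate block (0.99), total counts (0.59), and without SASCs sample 3 (0.92) or EASCs sample 3 (0.81). Trpc6, which opens to diacylglycerol, had means of 1.14, 0.804, and 1.78 CPM, and its difference of 1.14 ± 0.364 between EASCs and PASCs was lost without PASCs sample 1 (FDR = 0.117) or EASCs sample 1 (FDR = 0.0734).

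Other genes that move calcium were listed with earlier results of these data known. The counts of these lists stand against 13.6% higher and 14.2% lower among all genes in EASCs, and 12.0% and 14.9% in PASCs, and no list was tested against these shares. Of the 5 genes of store-operated entry, 1 was higher in EASCs than in SASCs: Orai1, the pore that opens when stores are empty, had 7.72, 8.11, and 8.59 CPM in SASCs, 15.2, 13.7, and 14.4 CPM in PASCs, and 17.7, 17.8, and 19.7 in EASCs (1.18 ± 0.103 in EASCs). Of 7 other TRP and mechanosensitive channel genes tested, 3 were higher and 1 lower in EASCs against SASCs. Piezo2, a stretch-gated channel of touch receptors, had 0.452, 0.509, and 0.391 CPM in SASCs, 4.05, 3.07, and 3.39 CPM in PASCs, and 15.2, 16.6, and 15.4 in EASCs, and was a DEG in all 3 comparisons (5.10 ± 0.196 in EASCs and 2.94 ± 0.231 in PASCs against SASCs, and 2.16 ± 0.142 between EASCs and PASCs). Mcoln1, the cation channel of lysosomes, was lower in EASCs by −1.25 ± 0.0828.

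Itpr1, Itpr2, and Itpr3 encode the IP3 receptors, which release calcium from the endoplasmic reticulum. Itpr1 had 22.9, 21.4, and 22.5 CPM in SASCs, 67.2, 65.6, and 71.1 CPM in PASCs, and 88.6, 95.2, and 93.3 in EASCs, while Itpr2 had 37.6, 34.4, and 46.1 CPM in SASCs, 12, 11.3, and 13.3 CPM in PASCs, and 14.6, 11.8, and 11 in EASCs. The log2 fold changes in EASCs and PASCs against SASCs were 2.05 ± 0.0645 and 1.61 ± 0.0649 for Itpr1 and −1.66 ± 0.11 and −1.69 ± 0.111 for Itpr2. Itpr3 had means of 87.8, 65.9, and 43.7 CPM in SASCs, PASCs, and EASCs and was lower in EASCs than in SASCs by a log2 fold change of −1.0 ± 0.0704. Ryr3, a ryanodine receptor, had means of 0.233, 3.48, and 0.387 CPM in SASCs, PASCs, and EASCs and was 3.87 ± 0.372 higher in PASCs than in SASCs. In all, 4 of the 6 release channel genes were tested, with 1 higher and 2 lower in EASCs and 2 higher and 1 lower in PASCs against SASCs.

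Among 6 tested pumps and exchangers for calcium, 2 were higher in EASCs against SASCs, and 1 was higher and 1 lower in PASCs. Slc8a1, the sodium-calcium exchanger, had 10.6, 11.2, and 11.7 CPM in SASCs, 53.6, 56.4, and 56.8 CPM in PASCs, and 71.2, 70.4, and 67.5 in EASCs (2.65 ± 0.0723 in EASCs and 2.32 ± 0.0727 in PASCs). Of 7 sodium-potassium pump genes tested, 2 were higher and 2 lower in EASCs and 2 higher and 3 lower in PASCs. The beta subunit Atp1b1 had means of 7.48, 48.9, and 33.9 CPM in SASCs, PASCs, and EASCs and was higher in PASCs (2.71 ± 0.0839) and EASCs (2.18 ± 0.0852) than in SASCs. Of 6 mitochondrial uniporter genes, 1, the pore Mcu, was higher in both EASCs (1.07 ± 0.119) and PASCs (1.10 ± 0.119). Of 10 calcineurin and NFAT genes tested, none was higher and 1 lower in EASCs, and 1 was higher and 1 lower in PASCs: the inhibitor Rcan2 was lower in both (−1.21 ± 0.119 and −1.39 ± 0.121), and Nfatc1 was higher in PASCs (1.56 ± 0.096).

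The medians of these lists stayed near those of all genes for the uniporter (0.07 in EASCs and 0.01 in PASCs against SASCs) and lay further away for the mechanosensitive list (0.69 and 0.64) and the sodium-potassium pump (−0.44 and −0.53). They were 0.32 and 0.14 for store-operated entry, −0.15 and 0.60 for release channels, 0.28 and 0.11 for pumps and exchangers, and 0.33 and 0.32 for calcineurin and NFAT. Between EASCs and PASCs, the release channels had no gene higher and 1 lower, the sodium-potassium pump had 0 higher and 2 lower, the pumps and exchangers and the mechanosensitive list each had 1 higher, and store-operated entry, the uniporter, and calcineurin and NFAT had 0 DEGs, against 5.19% higher and 2.20% lower among all genes.

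**Figure D4:**
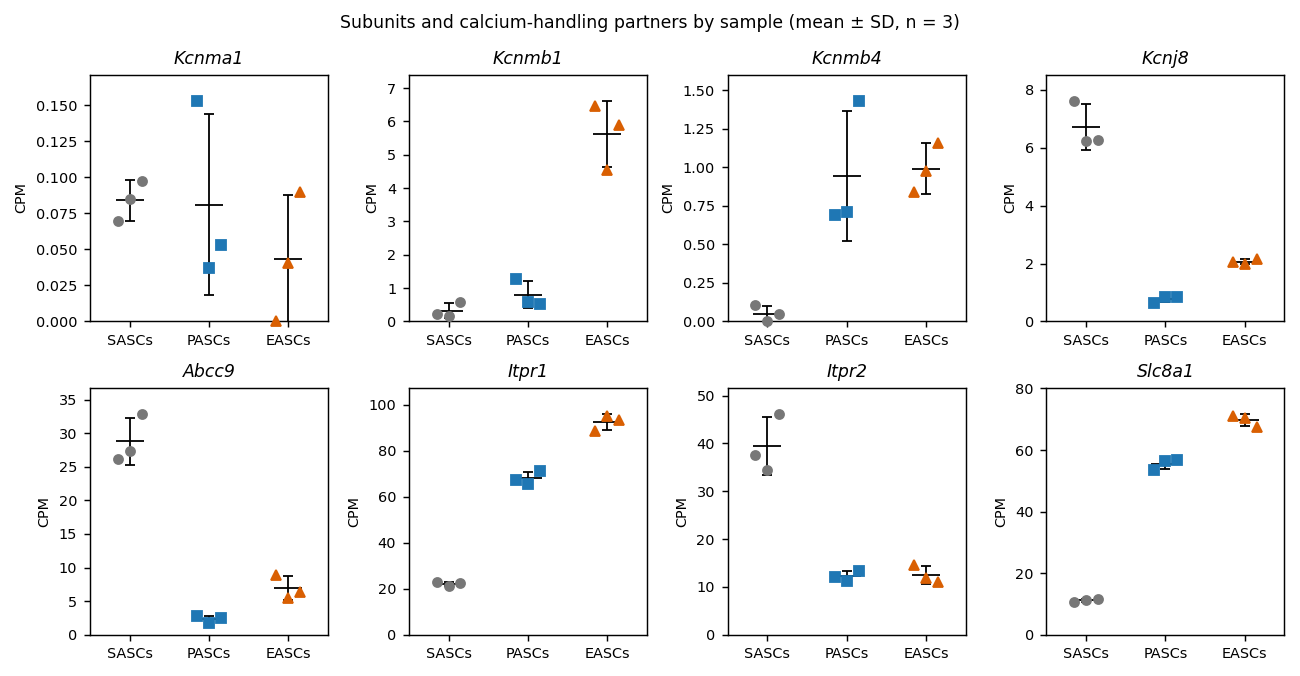
CPM in each sample for subunit genes and calcium-handling genes beside them, with points for samples, a bar for the mean ± SD (n = 3), and a linear axis from 0. Kcnmb1 rises to 6.45 CPM in EASCs while its pore gene Kcnma1 stays at or under 0.153, Abcc9 and Kcnj8 are highest in SASCs and lowest in PASCs, and Itpr1 and Slc8a1 are lowest in SASCs, where Itpr2 is highest.

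Sodium and chloride channels complete the set. Of 5 voltage-gated sodium channel genes tested, none was higher in EASCs or PASCs than in SASCs, 3 were lower in EASCs, and 4 in PASCs. Scn4a, the channel of skeletal muscle, had 5.53, 4.8, and 4.2 CPM in SASCs, 0.115, 0.112, and 0.424 CPM in PASCs, and 0.335, 0.0811, and 0.134 in EASCs (−4.58 ± 0.393 in PASCs and −4.69 ± 0.397 in EASCs). The 5 markers of skeletal muscle did not exceed 0.650 CPM in any sample, and their part in the result was not tested. Scn3a had means of 1.72, 0.104, and 0.63 CPM, and Scn7a was at 0 in all PASC samples against a mean of 1.03 CPM in SASCs. Of 8 chloride channel genes tested, none was higher and 1 lower in EASCs and 3 lower in PASCs, among them Lrrc8b, a subunit of the volume-regulated anion channel, with means of 36.1, 13.4, and 13.6 CPM, and Ano1, the calcium-activated chloride channel, at 0 in all PASC samples against a mean of 0.572 CPM in SASCs. Of the 11 other partners of potassium channels, 2 were tested and Hcn3, a pacemaker channel gene, was lower in EASCs (−1.36 ± 0.479) and PASCs (−2.20 ± 0.527). In EASCs against PASCs, 2 sodium channel genes and 1 chloride channel gene were higher and 0 were lower. Among all genes, 13.6% were higher and 14.2% lower in EASCs against SASCs, 12.0% and 14.9% in PASCs against SASCs, and 5.19% and 2.20% in EASCs against PASCs. The median log2 fold changes of the sodium channel genes, with Scn7a set to its bound at 3 counts, were −1.46 in EASCs and −4.06 in PASCs relative to SASCs and 1.24 between EASCs and PASCs, and those of the chloride channel genes, with Ano1 treated likewise, were −0.27, −0.41, and 0.23.

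Among the 98 channel genes that did not reach 20 counts in all 3 samples of a group were all 8 gamma subunit genes. Of the 14 of these genes that were tested, Kcng4 had the highest count, 41, and was 1.87 higher in EASCs and 1.79 higher in PASCs than in SASCs on the log2 scale. Kcna4 had 16, 14, and 28 counts in SASCs, 6, 4, and 0 counts in PASCs, and 0, 3, and 0 in EASCs, and was lower in PASCs than in SASCs (−2.54). Cacna1d, an L-type pore, was higher in EASCs than in SASCs (2.51). The genes with 0 counts in all 9 samples were Cacng1, Cacng3, Cacng5, Cacng6, Kcna5, Kcna10, Kcne1, Kcng3, Kcnj1, Kcnk6, Kcnk16, Kcnmb2, Kcnq3, Kcns2, Kcnv1, Trpm5, and Trpv5. A count of 0 allows at most 3 counts, or 0.104 to 0.159 CPM in a sample, and covers counting error only.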

How the data were processed

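RNA of SASCs, PASCs, and EASCs at passage 3 was sequenced by the authors as paired-end reads of 150 bp. Adaptors and low-quality sequence were removed with cutadapt and FastX-Toolkit, and reads were aligned with TopHat. The methods name rn6 as the genome, the submitters' processing notes name TopHat2 and rn5, and the gene positions of the table fit rn6. The authors deposited raw counts of reads per gene, not normalized. The counting tool, the use of strand, and the treatment of reads that match several genes are not given in the sources used here.

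Samples were grouped by their labels. Counts were scaled by TMM and filtered with filterByExpr, and all 9 samples were fitted by group with edgeR 4.0.16 (glmQLFit and glmQLFTest) in R 4.3.3. P-values were adjusted over 14770 genes (Benjamini-Hochberg), and DEGs had an FDR under 0.05 and a fold change above 2. The common biological coefficient of variation was 0.0685. Fitted log2 fold changes are given ± SE. A group at 0 counts was given a bound at 3 counts over the group, and for Kcna7, with 1 count in SASCs, a ratio of summed counts with a 95% interval was used. Depth was 17591916 to 30299032 counts per sample. The fit was tested on simulated data.

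The members, gene lists, markers, and motifs were chosen with earlier results of these data known. Named members had at least 20 counts in all 3 samples of a group, and from each list at most 4 of its DEGs with the largest change could be named. Kcng4, Kcna4, Cacna1d, Kcnma1, Kcnj11, and Abcc8 fall outside these rules and were named after their values were seen. Promoter sequences came from RefSeq (GRCr8) and were matched by symbol, and their coordinates are not those of the table. Alternatives were DESeq2 1.42.0, other scalings and filters, fits restricted to a pair of groups, the replicate block, other thresholds, and leaving out each sample. Some genes that these rules select are not reported here.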

Additional observations from a re-analysis of the deposited data

How the results depend on the processing

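The DEG counts among channel genes were 30 in EASCs against SASCs, 24 in PASCs against SASCs, and 18 in EASCs against PASCs. Of all genes tested, 27.8%, 26.9%, and 7.39% were DEGs. At a fold change above 4 they were 17, 13, and 10 of the 55 genes, against 11.6%, 11.2%, and 2.06% of all genes. Of these, 11 were higher and 6 lower in EASCs against SASCs, where the main fit had 14 and 16. The other comparisons had 5 higher and 8 lower, and 8 higher and 2 lower. At an FDR under 0.05 with any fold change they were 41, 37, and 25 of the 55 genes, against 69.7%, 69.2%, and 30.7% of all genes. In the comparisons with SASCs these shares were close to those of all genes, unlike the shares at a fold change above 2. Leaving out each sample in turn gave 30 to 34, 22 to 26, and 14 to 21, against 27.1% to 28.4%, 26.2% to 27.2%, and 6.73% to 7.32% of all genes. DESeq2 gave 28, 24, and 16, against 27.3%, 26.5%, and 7.13%. No filter on counts gave 35, 24, and 19, against 20.3%, 19.2%, and 5.09%, where more genes were tested than in the main fit. Fits restricted to a pair of groups gave 30, 21, and 17 DEGs, against 27.7%, 26.6%, and 7.36% of all genes. Total counts without TMM gave 31 (12 higher and 19 lower), 28 (9 and 19), and 17 (12 and 5), against 32.3%, 30.0%, and 6.84% of all genes. That scaling moved the median of all genes to −0.39, −0.33, and −0.08, and under it Cacna2d1 (−0.19) and Cacnb3 (−0.22) reversed in EASCs against SASCs. A minimum of 10 counts named 53 genes and one of 50 counts named 27, in place of 41. Same-numbered samples did not deviate together over all genes, with correlations from −0.0348 to 0.038. Counting error of low genes enters these values, so they cannot show whether samples of the same number share a rat or a batch. The replicate block gave 29, 23, and 18 DEGs, against 27.5%, 26.7%, and 7.22% of all genes. Of 1839 values of single genes under the alternatives, 1779 kept their direction and their side of the FDR threshold, 35 lost it, 23 gained it, and 2 reversed. With the fold change of 2 included, 21 DEG calls were lost and 22 gained, in 14 genes. Depth limits the 84 genes below the filter, and differences of about 3 counts could not be resolved. The number of samples, 3 in each group, limits the precision of every fold change.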
